A study of Mus musculus with 16 samples.

Results

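The Slc25 mitochondrial carriers of *db/db* mouse islets were described here in RNA-seq of islets cultured with DMSO or adjudin. Members were taken as the protein-coding rows of the deposited gene table whose symbol is Slc25a followed by a number, which gave 47 of 54532 genes in the table and of its 22046 protein-coding genes. Of these 47 carriers, 40 passed the filter on low counts and were tested, and 7 did not pass. There were 16 samples, 8 with DMSO and 8 with 10 µmol/l adjudin, a compound known from work on male contraception. All islets came from male *db/db* mice of strain BKS(D)-Leprdb/JOrlRj, which lack a working leptin receptor, at 12 to 13 weeks of age, and the medium of the 1 day culture held 11 mmol/l glucose. The labels number 8 batches, each with 1 sample of either treatment, and the methods give 1 to 2 mice per biological sample, so adjudin was set against DMSO within a batch. Whole islets hold several cell types, and a change of transcript per cell and a change in the share of a cell type cannot be told apart in such samples.

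Mitochondrial carriers form one family of small membrane proteins, most of which sit in the inner mitochondrial membrane and exchange a metabolite of the matrix for one of the cytosol. They bring in ADP, phosphate, amino acids, carboxylates and cofactors and send out ATP and the carbon skeletons used in the cytosol. In beta cells, glucose raises the ATP/ADP ratio and thereby triggers insulin release, and the malate–aspartate shuttle, which runs through carriers of this family, passes cytosolic reducing power to the mitochondria.

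The ADP/ATP carrier genes *Slc25a5* and *Slc25a4* led the family in every DMSO sample by the deposited gene lengths, and adjudin moved no carrier past an adjusted p of 0.05. The nearest was *Slc25a29*, a carrier of basic amino acids, at 9.78 ± 2.13 CPM (counts scaled to library size) with DMSO and 11.5 ± 1.92 with adjudin (mean ± SD, n = 8 each). The 2 ADP/ATP carriers with the highest levels were a few percent lower with adjudin in 7 of 8 batches each, and neither passed the test. For 35 of 40 tested carriers the 95% interval of the change lay within 1.2-fold either way.

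The start regions of 4 carriers are shown because the results turn on them. *Slc25a5*, *Slc25a4* and *Slc25a3* led the family, and *Slc25a29* came closest to passing the test. Each sequence is RefSeq, build GRCm38.p6, and runs from 250 bases before to 50 bases after the annotated start, on the strand of the gene. The regions are chrX:36795347-36795646 (plus strand) for *Slc25a5*, chr8:46211013-46211312 (minus) for *Slc25a4*, chr10:91123918-91124217 (minus) for *Slc25a3* and chr12:108835827-108836126 (minus) for *Slc25a29*. Capitals mark a GC box (GGGCGG) or a TATA box (TATAA) on either strand, and none of these matches overlap each other.
Slc25a5: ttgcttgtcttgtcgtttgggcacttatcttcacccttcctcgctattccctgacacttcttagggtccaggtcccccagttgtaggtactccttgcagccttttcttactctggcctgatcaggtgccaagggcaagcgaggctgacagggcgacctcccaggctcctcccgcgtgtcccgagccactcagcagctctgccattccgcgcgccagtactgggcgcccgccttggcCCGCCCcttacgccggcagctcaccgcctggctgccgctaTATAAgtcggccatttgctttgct
Slc25a4: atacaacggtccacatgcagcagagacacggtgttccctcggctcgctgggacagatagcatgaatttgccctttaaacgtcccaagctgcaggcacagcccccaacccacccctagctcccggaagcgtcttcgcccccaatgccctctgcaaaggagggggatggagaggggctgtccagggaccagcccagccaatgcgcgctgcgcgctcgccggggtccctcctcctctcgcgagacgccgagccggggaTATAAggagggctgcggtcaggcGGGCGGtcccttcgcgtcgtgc
Slc25a3: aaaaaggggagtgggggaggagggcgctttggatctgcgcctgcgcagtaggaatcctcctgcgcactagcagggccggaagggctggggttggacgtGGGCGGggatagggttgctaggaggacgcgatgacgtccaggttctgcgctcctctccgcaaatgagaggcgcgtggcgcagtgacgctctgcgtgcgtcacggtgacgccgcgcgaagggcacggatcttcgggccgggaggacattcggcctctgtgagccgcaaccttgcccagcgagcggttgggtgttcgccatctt
Slc25a29: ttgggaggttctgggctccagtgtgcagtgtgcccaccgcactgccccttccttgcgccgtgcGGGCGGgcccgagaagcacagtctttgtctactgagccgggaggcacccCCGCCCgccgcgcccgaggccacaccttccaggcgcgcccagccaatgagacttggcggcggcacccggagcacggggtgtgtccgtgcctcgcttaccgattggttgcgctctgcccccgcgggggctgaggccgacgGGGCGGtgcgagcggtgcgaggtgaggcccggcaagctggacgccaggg

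The *Slc25a5* and *Slc25a4* regions each hold 1 TATAA and 1 GC box, *Slc25a3* holds 1 GC box and no TATAA, and *Slc25a29* holds 3 GC boxes and no TATAA. The TATAA letters begin 26 bases after the annotated start in *Slc25a5* and 5 bases after it in *Slc25a4*. The starts of the deposited table differ from these: that of *Slc25a5* lies 54 bases further downstream, so that its TATAA begins 28 bases before it, and that of *Slc25a4* lies 222 bases further upstream. RefSeq gave such a region for 36 of the 47 carriers, and for carriers with several starts the most upstream was taken, which is the first in the RefSeq table. A GC box was found in 30 of these 36 (83.3%), against 35.9% of the regions of the same length over 27025 genes. Those genes were not filtered for protein-coding type or for level in islets, unlike the carriers, which are all protein-coding and mostly detected. TATAA was found in 4 of 36 (11.1%, against 25.5%) and CCAAT in 17 (47.2%, against 37.9%). The 10-letter palindrome of the nuclear respiratory factor NRF1 was found in 0 of 36, against 0.977% of all regions. CG dinucleotides numbered 17 in the median carrier region (range 1 to 47), against 7 in the median of all regions. The 31 carriers that were tested held 6 to 47 (median 18) and the 5 not tested held 1 to 22. These matches describe letters in a window, and no binding was measured.

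Library totals ran from 24190102 to 34471164 counts. Among the 10 listed beta cell markers, mean levels with DMSO ran from 28.6 CPM (*Slc2a2*) to 52540 CPM (*Ins2*). None of the markers listed for 8 islet and neighbouring cell types was at 0. Macrophage markers were lower with adjudin in the test across all genes (9 of 12 listed genes, median log2 fold change −0.39), with a summed level of 708.7 to 1312 CPM over the DMSO samples and 678.6 to 922 CPM over the adjudin samples. Of 10 stellate and fibroblast markers 6 were lower (summed level 9714 to 19930 and 9289 to 17810 CPM), and 3 of 10 beta cell markers were higher (36020 to 121600 and 40100 to 105200 CPM). Of all tested genes 3.07% were lower and 2.17% higher in the same test. None of the listed alpha, delta, endothelial, acinar and ductal markers passed it. The part of the marker shifts in the carrier values was not tested. Batches 2 and 3 stood apart in both treatments. Their 2 DMSO samples were the lowest 2 of 8 for 15% of all tested genes and the highest 2 for 19.2%. Their 2 adjudin samples were so for 18.1% and 20.8%. For the carriers the corresponding counts were 7 and 5 of 40 with DMSO (17.5% and 12.5%). With adjudin they were 10 and 5 of 40 (25% and 12.5%). Leaving out both batches gave 0 carriers past the threshold (2 at an unadjusted p under 0.05), and 257 of all genes in place of 886.

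Levels at baseline are given as TPM, a count per length of gene scaled to the same total in each sample, in the 8 DMSO samples. *Slc25a5*, which encodes the ADP/ATP carrier ANT2, was highest at a median of 412 TPM (lowest 331, highest 477), and stood at the 99.1 percentile of protein-coding genes. *Slc25a4*, the ADP/ATP carrier ANT1 best known from heart and muscle, had a median of 231 TPM (206 to 249). *Slc25a3*, the phosphate carrier that supplies ATP synthase, had 174 TPM (120.4 to 189). The ranges of these 3 did not overlap, and *Slc25a5* was first and *Slc25a4* second in 8 of 8 DMSO samples.

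The glutathione carrier gene *Slc25a39* followed at 163 TPM (97.3 to 178) and was below *Slc25a3* in 7 of 8 samples, with overlapping ranges. *Slc25a1*, the citrate carrier, came next at 132 TPM (92.1 to 136), below *Slc25a39* in 8 of 8 samples. *Slc25a11*, the 2-oxoglutarate/malate carrier of the malate–aspartate shuttle, was sixth in 8 of 8 samples at 76.5 TPM (60.0 to 86.3). From there the order was no longer fixed. The NAD carrier *Slc25a51* (63.4 TPM), mitoferrin-2 *Slc25a28* (56.4), the peroxisomal coenzyme A carrier *Slc25a17* (54.5), the calcium-regulated ATP-Mg/phosphate carrier *Slc25a24* (52.0) and the branched-chain amino acid carrier *Slc25a44* (50.9) had overlapping ranges, and *Slc25a28* exceeded *Slc25a17* in only 4 of 8 samples.

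The family was steep. The 5 highest carriers held 61.5% of the summed carrier TPM (60.0% to 62.5% over the 8 samples) and the 10 highest held 78.4%. A median above 20 TPM was reached by 13 carriers, and 7 were below 1 TPM. All 47 together made up 0.181% of all TPM (0.141% to 0.194%).

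The leading place depended on the length assigned to each gene. For 44 of 47 carriers the deposited length equals the count of all bases that are exonic in any transcript of GENCODE M21, and for *Slc25a3* it is 5550 bases, 3.44 times its principal transcript of 1612 bases. For *Slc25a28* the deposited length is 1514 bases where that count is 3749, which raises its TPM against the other carriers, and *Slc25a46* (4371 against 5425 bases) and *Slc25a45* (2650 against 2762) also fell short. With principal transcript lengths *Slc25a3* was first at 499 TPM (388 to 536) and *Slc25a5* second at 457 TPM (412 to 521), and *Slc25a3* was the higher of both in 6 of 8 samples. With coding lengths *Slc25a3* was the higher in 7 of 8, and by CPM alone it led at 382 CPM. *Slc25a5* exceeded *Slc25a4* in 8 of 8 samples by either length. Reads of near-identical copies may also have been split: 12.0% of 100-base windows of *Slc25a5* transcripts occur in transcripts of other genes, such as the predicted locus Gm5256, against 0% for *Slc25a4*.

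**Figure D1:**
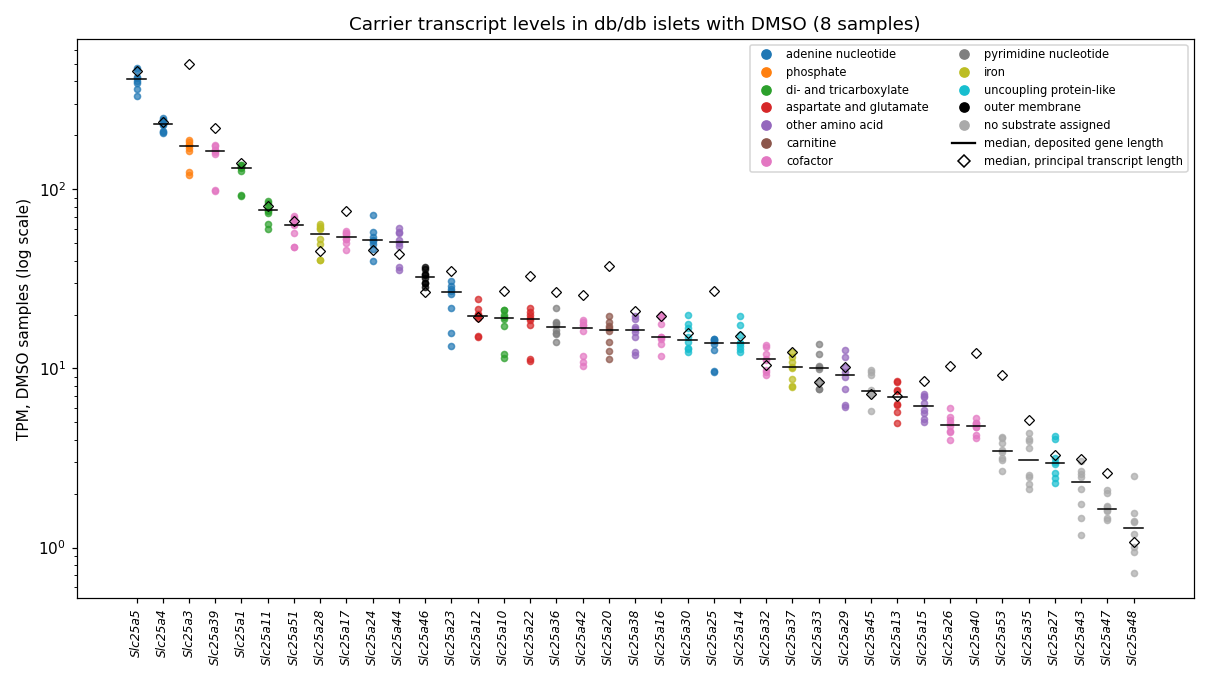
Level of 39 of the 40 tested carriers in the 8 DMSO samples (TPM, log scale), ordered by median and coloured by substrate group, with 1 point per sample. Black bars mark the median with the deposited gene length, where *Slc25a5* leads at 412 TPM, and open diamonds mark the median with the length of the principal transcript, where *Slc25a3* leads at 499 TPM.

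Grouped by substrate, the 7 adenine nucleotide carriers held 41.1% of the family's TPM with DMSO (39.8% to 44.8%), most of it from *Slc25a5* and *Slc25a4*. The 9 cofactor carriers held 18.9% (17.3% to 19.5%), led by *Slc25a39* and *Slc25a51*. The 4 di- and tricarboxylate carriers held 12.4%, led by *Slc25a1*, and *Slc25a3* alone held 9.45%. These shares depend on the lengths, and with principal transcript lengths *Slc25a3* held 20.7% (19.1% to 21.5%), the adenine nucleotide carriers 34.1%, the cofactor carriers 19.1% and the di- and tricarboxylate carriers 10.4%. With coding lengths *Slc25a3* held 15.6%. By the deposited lengths less was held by the 5 carriers of other amino acids (4.65%, led by *Slc25a44*), the 2 iron carriers (3.56%), the 4 carriers of aspartate and glutamate (2.53%) and the 3 carriers named for likeness to uncoupling proteins (1.85%). The outer membrane protein *Slc25a46* held 1.69%, the 2 pyrimidine nucleotide carriers 1.59%, the 8 carriers grouped here without an assigned substrate 1.14% and the carnitine/acylcarnitine carrier *Slc25a20* 0.887%.

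Within a substrate, 1 paralogue usually led. *Slc25a39* exceeded its paralogue *Slc25a40* by a TPM ratio of 32.1 (21.1 to 42.5 over the DMSO samples). Mitoferrin-2, *Slc25a28*, exceeded mitoferrin-1, *Slc25a37*, known from erythroid cells, by 5.27 (3.97 to 7.12). Among the calcium-activated aspartate/glutamate carriers of the malate–aspartate shuttle, aralar (*Slc25a12*) exceeded citrin (*Slc25a13*) by 2.63 (2.39 to 3.88). Each of these orders held in 8 of 8 DMSO samples by the deposited lengths. With principal transcript and coding lengths respectively, the ratio of *Slc25a39* to *Slc25a40* was 17.4 and 9.91, that of *Slc25a28* to *Slc25a37* 3.60 and 1.23, and that of *Slc25a12* to *Slc25a13* 2.50 and 5.08. With coding lengths *Slc25a28* was the higher in 7 of 8 samples.

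The ratio of *Slc25a4* to *Slc25a5* was 0.563 (0.514 to 0.622), and that of the calcium-regulated ATP-Mg/phosphate carriers *Slc25a23* to *Slc25a24* was 0.489 (0.259 to 0.679). For the pyrimidine nucleotide carriers *Slc25a33* to *Slc25a36* it was 0.585 (0.465 to 0.784). The second gene of each pair was thus the higher in 8 of 8 samples. The last ratio rests on genes that share sequence windows with other loci (10.2% for *Slc25a33* and 7.88% for *Slc25a36*). With principal transcript and coding lengths respectively, the ratio of *Slc25a33* to *Slc25a36* was 0.319 and 0.112, that of *Slc25a23* to *Slc25a24* 0.769 and 0.767 (*Slc25a24* the higher in 7 of 8 samples), and that of *Slc25a4* to *Slc25a5* 0.519 and 0.805. The median ratio stayed on the same side of 1 in each of the 6 pairs. For the glutamate carriers, *Slc25a22* had 18.8 TPM (11.0 to 21.8), and *Slc25a18* was barely detected.

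The changes of the 6 ratios with both genes tested are given without a test. With adjudin the log2 ratio of *Slc25a4* to *Slc25a5* moved by −0.03 ± 0.07 (mean ± SD over 8 batches, adjudin minus DMSO), down in 6 of 8. *Slc25a33* to *Slc25a36* moved by −0.15 ± 0.23, down in 6 of 8, and *Slc25a23* to *Slc25a24* by 0.15 ± 0.18, up in 6 of 8. The ratios of *Slc25a12* to *Slc25a13* (0.02 ± 0.14), *Slc25a28* to *Slc25a37* (−0.05 ± 0.20) and *Slc25a39* to *Slc25a40* (0.0089 ± 0.23) went up in 5, 3 and 4 of 8 batches.

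**Figure D2:**
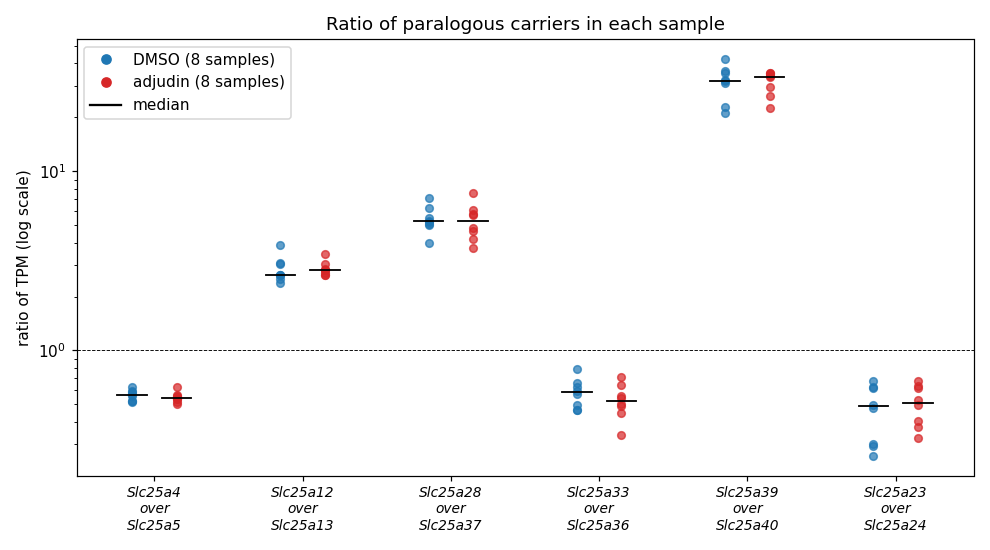
Ratio of the TPM of 6 pairs of paralogous carriers in each sample (log scale), with 8 DMSO and 8 adjudin samples per pair and black bars at the medians. The DMSO and adjudin points overlap in every pair, from *Slc25a23* over *Slc25a24* (median 0.489 with DMSO) to *Slc25a39* over *Slc25a40* (32.1).

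Adjudin was compared with DMSO by edgeR's quasi-likelihood test with the batch as a term, on CPM scaled by the trimmed mean of M values (TMM), with p values adjusted over all 16910 genes tested. Of the 40 tested carriers 0 passed an adjusted p of 0.05, against 5.24% of all tested genes (2.17% upregulated and 3.07% downregulated). At an unadjusted p under 0.05 there were 8 carriers (20%), against 21% of all genes, 6 of them higher and 2 lower. With the batch term, DESeq2 called 1 carrier (*Slc25a29*) and limma-voom called 0. The log2 fold change was above 0 for 26 and below 0 for 14 carriers, while 48.6% of all tested genes were below 0. The median was 0.02 for the carriers against 0.0032 over all tested genes.

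The size of change that these samples left possible was small for most carriers. The 95% interval lay within 1.1-fold either way for 18, within 1.2-fold for 35 and within 1.5-fold for 39 of 40 tested carriers. The median absolute log2 fold change was 0.047. The DMSO and adjudin ranges overlapped for 40 of 40. They hold the spread between batches as well, so the overlap does not measure the change within batches. The share of all tested genes with such an overlap was not counted. With TMM factors no carrier moved the same way in 8 of 8 batches, 2 were lower in at least 7 (5%, against 10.4% of all tested genes) and 1 was higher in at least 7 (against 9.63%). With relative log expression factors 3 were higher in at least 7 (*Slc25a29*, *Slc25a37* and *Slc25a42*) and 2 lower. With no scaling factors *Slc25a42* was higher in 8 of 8 and *Slc25a37* in 7 of 8, and 1 carrier, *Slc25a4*, was lower in at least 7.

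**Figure D3:**
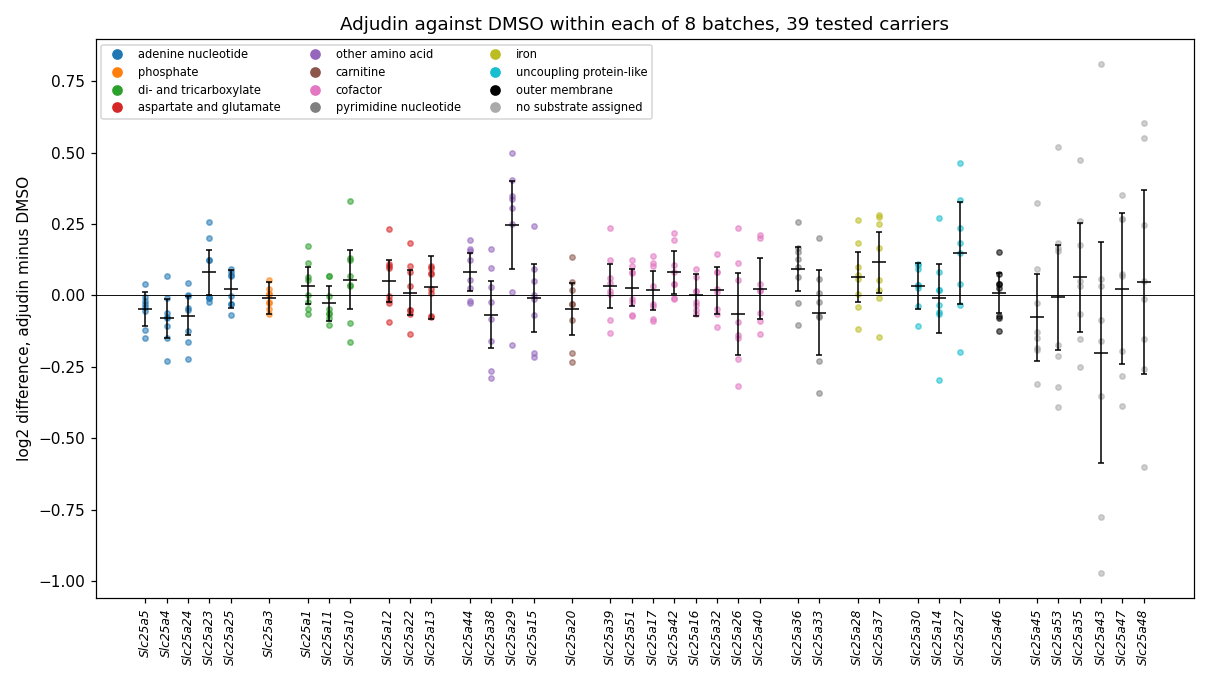
Log2 difference in CPM between adjudin and DMSO within each of 8 batches (points) for 39 of the 40 tested carriers, grouped and coloured by substrate, with the fitted log2 fold change and its 95% interval in black. *Slc25a29* has the highest fitted value (0.25), 0 of 40 carriers passed the test, and the widest intervals belong to carriers with low counts such as *Slc25a43*.

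Among the amino acid carriers, *Slc25a29*, at chr12:108825873-108835883 (minus strand, GRCm38), stood nearest to the threshold. With DMSO it had 12.3, 7.65, 8.11, 7.22, 8.74, 12.2, 11.9 and 10.1 CPM in batches 1 to 8. With adjudin it had 12.4, 9.47, 10.3, 9.59, 11.2, 10.8, 14.2 and 14.3 CPM. The value with adjudin was the higher in 7 of 8 batches, all but batch 6, while the ranges of both treatments overlapped. In edgeR's quasi-likelihood test the log2 fold change was 0.25 ± 0.07 (SE, 95% interval 0.09 to 0.40) and the adjusted p was 0.061.

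The call for *Slc25a29* turned on the processing. It passed with DESeq2 (adjusted p = 0.042), with no filter on low counts (0.0086), without batch 1 (0.045) and without batch 6 (0.011), within a range of 0.0086 to 0.23 over the alternatives that kept the batch term, the highest without batches 2 and 3. With no scaling factors it was higher in 6 of 8 batches. At 202 to 391 counts per sample it was 29th of 47 in level (9.21 TPM).

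The branched-chain amino acid carrier *Slc25a44* had 73.3 ± 8.37 CPM with DMSO and 77.6 ± 7.53 with adjudin (log2 fold change 0.08, adjusted p = 0.14, higher in 6 of 8 batches). The glycine carrier *Slc25a38*, needed for haem synthesis, moved by −0.07 on the log2 scale (adjusted p = 0.52), and the ornithine carrier *Slc25a15* by −0.01 (adjusted p = 0.94). Summed per kilobase, the 5 carriers of this group were a median of 5.00% higher with adjudin (−3.35% to 13.0% over the batches), higher in 7 of 8. This sum uses the deposited lengths and is led by *Slc25a44*, and 2 of the 4 tested genes had a log2 fold change above 0. Taken singly, 9.63% of all tested genes were higher in at least 7 of 8 batches.

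Of the adenine nucleotide carriers, *Slc25a4*, at chr8:46206797-46211284 (minus strand, GRCm38), had 202, 236, 241.4, 209, 214, 217, 240.8 and 223.0 CPM with DMSO in batches 1 to 8. With adjudin it had 212, 226, 239.6, 198, 193, 201.4, 205 and 212 CPM. It was lower in 7 of 8 batches, all but batch 1, and the ranges overlapped. Its log2 fold change was −0.08 ± 0.03 (SE, 95% interval −0.15 to −0.01), with an adjusted p of 0.15 (edgeR).

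*Slc25a5*, at chrX:36795651-36798807 (plus strand), had 279 ± 10.7 CPM with DMSO (lowest 257, median 283, highest 288) and 269.7 ± 12.6 CPM with adjudin (257, 266, 296). It was lower in 7 of 8 batches, all but batch 2 (in 6 of 8 with no scaling factors), with a log2 fold change of −0.05 (95% interval −0.11 to 0.01, adjusted p = 0.36). Across the DMSO samples the coefficient of variation of its CPM, 3.86%, was the smallest among the tested carriers. The median was 12.8% for the carriers and 17.7% for all tested genes, which were not matched for level. *Slc25a5* was thus the steadiest of the tested carriers on the CPM scale. Its TPM, by which it was highest with the deposited length, ran from 331 to 477, and steadiness on that scale was not compared.

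Of the 3 calcium-regulated ATP-Mg/phosphate carriers, *Slc25a24* had 75.5 ± 12.3 CPM with DMSO and 71.5 ± 8.26 with adjudin (log2 fold change −0.07, adjusted p = 0.21). *Slc25a23* had 52.0 ± 11.5 and 54.5 ± 9.22 CPM (0.08, adjusted p = 0.22, higher in 4 of 8 batches). *Slc25a25* moved by 0.02 on the log2 scale (adjusted p = 0.74). The summed level of the adenine nucleotide carriers per kilobase was lower with adjudin in 8 of 8 batches, by a median of 2.48% (0.30% to 10.3%). It was lower in 8 of 8 with relative log expression factors and in 7 of 8 with no scaling factors. This sum uses the deposited lengths and comes mostly from *Slc25a5* and *Slc25a4*. Of the 5 tested genes of the group, 2 had a log2 fold change above 0. Taken singly, 3.15% of all tested genes were lower in 8 of 8 batches.

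**Figure D4:**
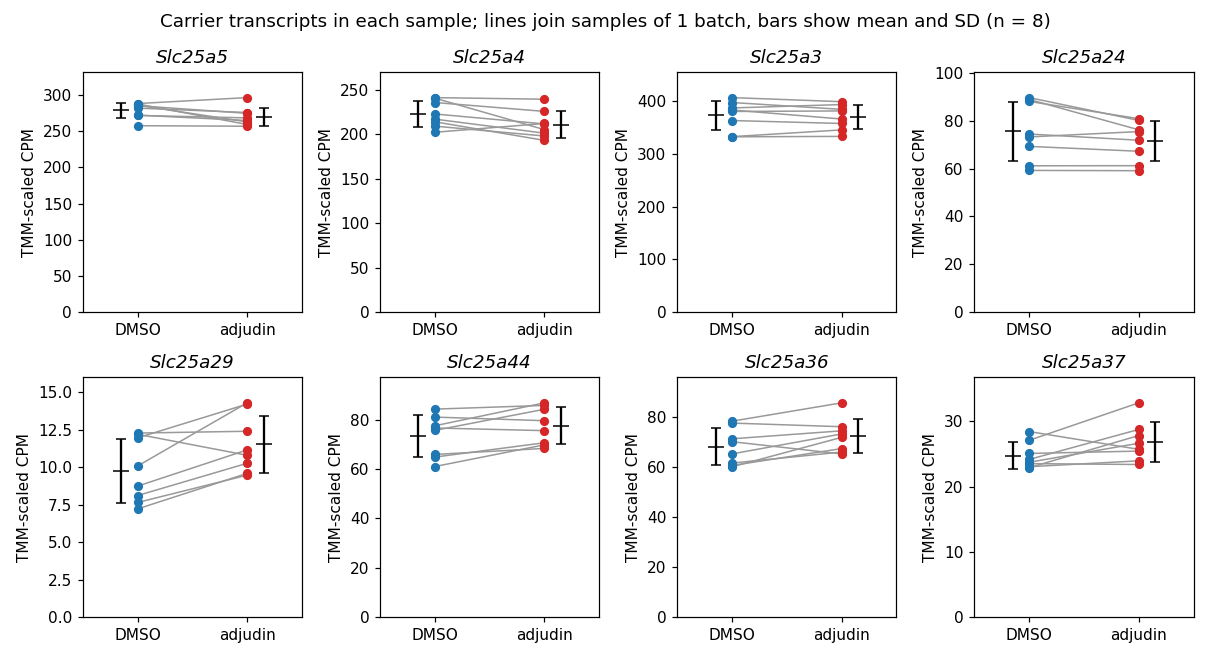
CPM scaled by TMM of 8 carriers in each DMSO and adjudin sample, with grey lines joining the samples of a batch and black bars at the mean ± SD (n = 8 per treatment). *Slc25a29* has the steepest lines, upwards in 7 of 8 batches, *Slc25a5* and *Slc25a4* slope slightly downwards in 7 of 8, and the points of both treatments overlap in every panel.

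The phosphate carrier *Slc25a3*, at chr10:91116574-91124059 (minus strand), had 373 ± 28.0 CPM with DMSO (lowest 333, median 382, highest 407) and 371 ± 23.5 CPM with adjudin (334, 374, 399.5). It was higher in 4 and lower in 4 batches, and its log2 fold change of −0.0099 had a 95% interval of −0.07 to 0.05 (adjusted p = 0.87). The lowest 2 DMSO samples were those of batches 2 and 3.

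Among the di- and tricarboxylate carriers, the citrate carrier *Slc25a1*, which feeds fatty acid synthesis, had 110 ± 11.3 with DMSO and 113 ± 13.5 CPM with adjudin (log2 fold change 0.03, adjusted p = 0.58). *Slc25a11* had 65.8 ± 2.58 and 64.6 ± 2.31 CPM (−0.03, adjusted p = 0.63). The dicarboxylate carrier *Slc25a10* had 25.1 ± 3.86 and 25.9 ± 2.36 CPM (0.05, adjusted p = 0.57). *Slc25a11* was also among the steadiest carriers on the CPM scale, with a coefficient of variation of 3.92% over the DMSO samples.

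The aspartate/glutamate carriers *Slc25a12* and *Slc25a13* moved by 0.05 and 0.03 on the log2 scale (adjusted p = 0.45 and 0.81), and the glutamate carrier *Slc25a22* by 0.0097 (adjusted p = 0.92). Both aspartate/glutamate carriers act in the same shuttle as *Slc25a11*. The carnitine/acylcarnitine carrier *Slc25a20*, which admits fatty acids for oxidation, had 31.4 ± 3.36 with DMSO and 30.4 ± 3.35 CPM with adjudin (log2 fold change −0.05, adjusted p = 0.57).

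Of the 9 cofactor carriers, 8 had a log2 fold change above 0, and 0 passed the test. *Slc25a39* had 170 ± 28.0 with DMSO and 173 ± 21.1 CPM with adjudin (log2 fold change 0.03, adjusted p = 0.65). The NAD carrier *Slc25a51* had 138 ± 8.68 and 140 ± 11.8 CPM (0.03, adjusted p = 0.67). The coenzyme A carrier *Slc25a42* had 37.5 ± 8.03 and 39.4 ± 6.87 CPM (0.08, adjusted p = 0.20). It was higher in 6 of 8 batches with TMM factors, in 7 with relative log expression factors and in 8 with no scaling factors. Log2 fold changes of *Slc25a16*, *Slc25a17*, *Slc25a26*, *Slc25a32* and *Slc25a40* lay between −0.06 and 0.02.

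Both iron carriers had positive fold changes. *Slc25a37* had 24.8 ± 2.01 with DMSO and 26.8 ± 3.02 CPM with adjudin (log2 fold change 0.12, 95% interval 0.0093 to 0.22, adjusted p = 0.20), and *Slc25a28* had 33.7 ± 5.49 and 35.2 ± 4.84 CPM (0.06, adjusted p = 0.41). Each was higher in 6 of 8 batches. Of the pyrimidine nucleotide carriers, *Slc25a36* had 68.3 ± 7.37 and 72.7 ± 6.69 CPM (0.09, adjusted p = 0.15, higher in 6 of 8), and *Slc25a33* had 7.72 ± 0.849 and 7.44 ± 1.13 CPM (−0.06, adjusted p = 0.67).

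Among the carriers named for uncoupling proteins, *Slc25a27* (UCP4) had 5.01 ± 0.927 with DMSO and 5.58 ± 1.25 CPM with adjudin (log2 fold change 0.15, 95% interval −0.03 to 0.33, adjusted p = 0.33). *Slc25a14* (UCP5) and *Slc25a30* had log2 fold changes of −0.01 and 0.03. *Slc25a46*, an outer membrane protein of mitochondrial dynamics, had 59.6 ± 11.0 and 59.9 ± 11.2 CPM. *Slc25a46* and *Slc25a14* were highest in batches 2 and 3 in both treatments, and *Slc25a14* ranged from 11.4 to 22.1 CPM over the DMSO samples.

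The 6 tested carriers without an assigned substrate were low, from *Slc25a45* at 7.47 TPM to *Slc25a48* at 1.29 TPM, and the widest intervals of the tested carriers were those of *Slc25a43*, *Slc25a48* and *Slc25a47* among them. *Slc25a43* had the most negative log2 fold change of the family, −0.20, with an interval of −0.59 to 0.19 (adjusted p = 0.57), at 23 to 57 counts per sample. For this carrier alone the interval reached beyond 1.5-fold. *Slc25a48* varied most over the DMSO samples on the CPM scale, with a coefficient of variation of 32.2%.

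Of the 7 carriers that did not pass the filter, the glutamate carrier *Slc25a18* reached 19 counts in its highest sample, the male germ cell ADP/ATP carrier *Slc25a31* reached 12, the ornithine carrier *Slc25a2* reached 7 and *Slc25a34* reached 6. *Slc25a41* and *Slc25a54* reached 3 counts each and the oxodicarboxylate carrier *Slc25a21* reached 2. *Slc25a54* had 0 counts in 8 of 8 DMSO samples, and a count of 0 allows up to 3 counts, or 0.124 CPM in the shallowest library. These 7 were not tested.

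Of the genes that work with the carriers, listed alongside them, 0 of 43 tested passed the same test, against 5.24% of all tested genes. Family members under other symbols included *Ucp2*, the uncoupling protein of beta cells, at 457 ± 86.4 CPM with DMSO and 451 ± 69.1 CPM with adjudin (log2 fold change −0.0085, adjusted p = 0.91), while *Ucp1* and *Ucp3* were not tested. The subunits of the mitochondrial pyruvate carrier, *Mpc1* and *Mpc2*, moved by −0.18 and −0.07 on the log2 scale (adjusted p = 0.31 and 0.33). The 3 voltage-dependent anion channels of the outer membrane lay between −0.05 and −0.02.

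Of 6 enzymes of the malate–aspartate and glycerol phosphate shuttles, *Gpd1*, the cytosolic glycerol-3-phosphate dehydrogenase, had 30.3 ± 2.99 with DMSO and 32.9 ± 2.77 CPM with adjudin (log2 fold change 0.12, adjusted p = 0.065, higher in 7 of 8 batches). Its partner *Gpd2* had 0.09 (adjusted p = 0.22). The 16 ATP synthase genes had a median log2 fold change of −0.07, with 7 at an unadjusted p under 0.05, all 7 lower, against 10.9% of all tested genes lower at that p. The most abundant by CPM, *Atp5b*, was lower in 8 of 8 batches, as were 3.15% of all tested genes (log2 fold change −0.06, adjusted p = 0.19). The 8 calcium transport genes had a median of −0.01 and the 5 sideroflexins a median of 0.03.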

How the data were processed

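Islet RNA was sequenced as poly-A-selected, paired-end libraries, and per the labels and the study's methods the authors aligned reads to mm10 (GRCm38) with HISAT2 2.0.5 and counted them with featureCounts 1.5.0-p3. The deposited values are whole-number counts per gene with no normalisation, beside gene lengths. Strand and multimapping settings and the annotation release were not found in the labels or methods. The exons of 14 carriers overlap another gene, 12 of them on the opposite strand, and 15 carriers share at least one 100-base window with transcripts of other genes, so their reads could have been split or added to.

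Counts were tested with edgeR 4.0.16 (TMM factors, filterByExpr, quasi-likelihood test, batch and treatment as terms) in R 4.3.3, with Benjamini-Hochberg adjustment over 16910 genes and a threshold of 0.05. Each SE was taken as the size of the log2 fold change divided by the root of the F statistic. The script was tested on simulated data. DESeq2 1.42.0, limma 3.58.1, other scaling factors and filters, a fit without the batch and each batch left out were alternatives. TPM used the deposited lengths. The pairing comes from the batch numbers in the labels. Same-numbered samples correlated at 0.37 to 0.69 in their deviations from the treatment means, and other pairs had a median of −0.18. Taking out the treatment means itself pushes the other pairs below 0, so −0.18 is not an independent baseline. All 8 adjudin samples were closest to the DMSO sample of their own number. The check for duplicate libraries covered pairs within a treatment, and it found none. With the batch as a term, p values weigh the difference within batches against the residual spread of these samples. They do not measure the spread between batches.

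Every carrier could be named, with full values for the 10 highest, those of fixed pairs and those the study names. The members and lists were chosen with earlier results of these data known. Annotation and transcript lengths are from GENCODE M21, and 98% of the deposited lengths equal its exon union. One carrier entered every count and sum and is not reported individually here.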

Additional observations from a re-analysis of the deposited data

Results flagged for a closer look

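One value among the carriers stood apart. *Slc25a11*, the 2-oxoglutarate/malate carrier, was at 69.8 CPM in the adjudin sample of batch 1, and the other 7 adjudin samples lay between 62.7 and 65.5 CPM. On the log2 scale the gap to the nearest sample was 0.591 of the group's whole range. The 8 DMSO samples ranged from 60.9 to 69.6 CPM, so the value was just above the highest DMSO sample. On that scale this was the only one of 80 groups of 8 samples in which a sample lay so far from the others. Chance gives about 1 in 20 groups, so 1 of 80 is below the rate of chance. On the CPM scale there were 3 such groups, this one and both groups of *Slc25a48*, which had 3.17 CPM in the DMSO sample of batch 5 (others 1.22 to 1.94) and 2.88 CPM in the adjudin sample of batch 6 (others 1.41 to 2.06).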

How the results depend on the processing

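Over the alternatives, 535 values kept their direction and side of the threshold or moved by less than the spread between samples, 29 moved, 7 changed sign and 4 passed the threshold only under the alternative. The count of carriers past the threshold was 0 with limma-voom, other scaling factors, the stricter filter and no replicate block, and without batches 2 and 3 together, an alternative chosen after seeing the data. It was 1 with DESeq2 and 1 with no filter on low counts, and 0 to 1 with 1 batch left out. In each case the carrier was *Slc25a29*, with log2 fold changes of 0.2508 with DESeq2, 0.2535 with no filter, and 0.21 to 0.31 with 1 batch left out (1 carrier called without batch 1 and without batch 6). Among the other transport genes *Gpd1* passed with no scaling factors (1 gene), with at least 1 CPM in 8 samples (1 gene) and without batch 2 (0 to 1 gene with 1 batch left out). The cause was not tested.

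Without the replicate block 1 gene of all was called in place of 886, and 0 carriers. *Slc25a22* then had a log2 fold change of −0.0013, and with 1 batch left out it ran from −0.013 to 0.031, *Slc25a3* from −0.019 to 0.00065 and *Slc25a40* from −0.00099 to 0.049.

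Ranks moved with the length used, while leaving out 1 batch moved none of the 10 highest carriers by more than 1 place. For lower ranks the effect of leaving out a batch was not examined. With coding lengths, principal transcript lengths and CPM alone, *Slc25a3* was 1st, *Slc25a5* 2nd and *Slc25a4* 3rd in each. In that same order *Slc25a51* was at rank 5, 8 and 5 and *Slc25a28* at 19, 10 and 18. *Slc25a1* was at rank 6 with coding lengths and with CPM, *Slc25a11* at 9 and 10 respectively, *Slc25a17* at 7 with principal transcripts and 11 with CPM, and *Slc25a24* at 8 with CPM. GENCODE coding and principal transcript lengths were chosen after seeing the data, the former in place of a RefSeq protein length that was not run. Depth limits the 7 untested carriers and *Slc25a43*.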
